A study of Mus musculus with 8 samples.

Results

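The genes described here are those of 10 proteins that cut extracellular matrix and cell-surface proteins, or that hold the cutting enzymes in check: the matrix metalloproteinases (MMPs) Mmp2, Mmp3, Mmp8, Mmp9, Mmp13 and Mmp14, the sheddase Adam17, and the tissue inhibitors Timp1, Timp2 and Timp3. They were picked by gene symbol, and all 10 of them had a row in the deposited count table of 13387 genes. Bulk RNA-Seq was performed on bone marrow megakaryocytes (MKs) of C57BL/6 mice, and covered 4 libraries of MKs kept alone and 4 of MKs kept for 18 hours with marrow mesenchymal stromal cells (MSCs). The MKs had been enriched from flushed marrow with magnetic beads against CD41, the platelet integrin alpha IIb, and not sorted to purity. The MSCs were wild-type marrow cells sorted as CD45-, Ter119- and CD31- with CD51+ and CD140a+, and adhered to the plate. Medium of both groups contained thrombopoietin, the growth factor of MKs, and each library pooled several wells. The labels describe the sequenced cells as MKs separated from platelets, whereas the methods of the study speak of platelets, and the labels give no age of the mice.

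MMPs are zinc-dependent enzymes made as inactive precursors. Mmp8 (neutrophil collagenase) and Mmp9 (gelatinase B) are stored in the granules of neutrophils. Mmp2 (gelatinase A), Mmp3 (stromelysin), Mmp13 (collagenase 3) and the membrane-anchored Mmp14 are typical products of fibroblasts, stromal cells and osteoblasts. Adam17, also known as TACE, releases the outer parts of membrane proteins, among them tumor necrosis factor and, on platelets, glycoprotein Ib alpha. TIMPs bind the active sites of MMPs. Timp2 also takes part, with Mmp14, in the activation of the Mmp2 precursor, and Timp3 is the TIMP that inhibits Adam17 and is held in the matrix.

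Levels are given in CPM, the counts of a gene scaled to a common library total with edgeR's TMM factors. A gene was called when edgeR's quasi-likelihood test gave a fold change of at least 2, with a p of at most 0.05 after Benjamini-Hochberg adjustment over all genes tested, and the mean of the higher group reached 1 CPM. Of the 10 genes, 9 passed the filter on low counts, and Mmp3 did not. In cocultures 6 of the 9 were called higher (Mmp2, Mmp13, Mmp14, Timp1, Timp2 and Timp3), where 13.2% of all 11722 genes tested were called higher. Mmp13 and Timp1 were at or near 0 in MKs alone and passed the filter through the cocultures alone. Their calls are therefore no separate support for a rise. The other calls were Mmp8 and Mmp9, which were lower, where 7.31% of all genes tested were. Adam17 was not called. Scaling the libraries to MK and platelet markers in place of TMM raised the median over all genes from 0.034 to 0.298 on the log2 fold change scale and raised the share of calls that were higher from 64.3% to 79.3%, and left 6 of the 10 genes called higher and 2 lower. The neutrophil-type and the stromal-type proteases moved in opposite directions, as the plot of levels per library shows. The labels do not tie libraries to mice, whereas the study describes its replicates as mice, and the p-values measure the spread between these libraries.

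**Figure D1:**
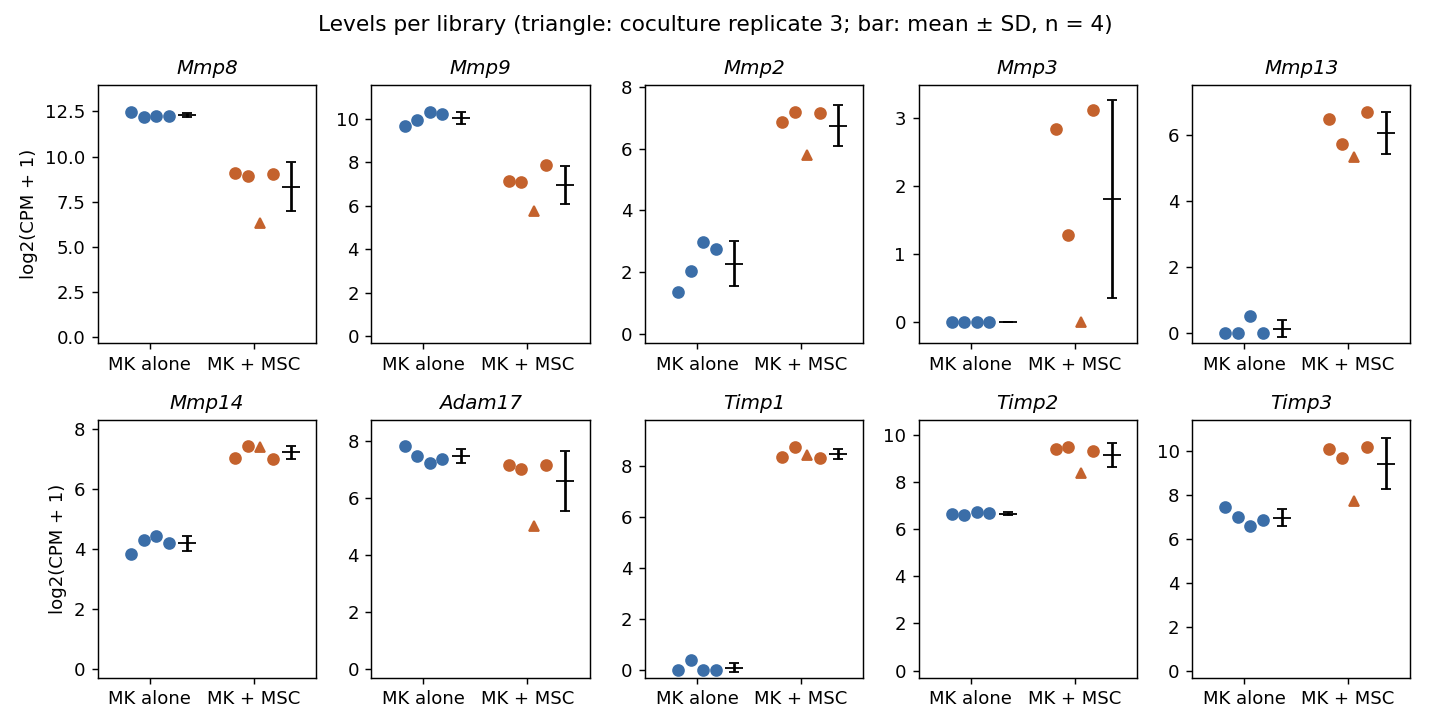
Level of each gene in every library, as log2(CPM + 1) on the y axis, for MKs alone (blue) and MKs with MSCs (orange), with triangles for coculture replicate 3 and bars for mean ± SD of 4 libraries. Mmp8 and Mmp9 sat lower in every coculture, whereas Mmp2, Mmp13, Mmp14 and the 3 TIMPs sat higher, and Mmp3 was at 0 in all MKs cultured alone and in coculture replicate 3.

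The libraries held from 4939874 to 12523616 counts. Replicate 3 of the cocultures stood apart, with the most counts (12523616) but counts on 10735 genes against 12406 to 13193 in the other libraries. Values without it are therefore given beside several of the results. Without it, 20.6% of 12267 genes tested were called higher and 15.4% lower. All 10 genes could then be tested, with 7 called higher and 2 lower. The added call was Mmp3, which was at 0 in the replicate left out. Of the marker lists, the 14 MK and platelet markers had summed levels of 2285 to 2522 CPM in MKs alone and 1790 to 2356 CPM in cocultures, with 1 called lower. The 12 neutrophil markers were all called lower, with sums of 78821 to 81613 CPM in MKs alone and 4269 to 9660 CPM in cocultures. Of 12 MSC markers, 9 had a row (not Dcn, Lum and Thy1) and 7 could be tested. All 7 were called higher, and the 9 had sums of 42.7 to 69.1 and 1237 to 4088 CPM. Macrophage markers were called higher in 10 of 10, with 179 to 242 and 1310 to 2268 CPM. Of 7 B cell markers, 4 were called lower, with sums of 847 to 895 and 60.9 to 220 CPM. No marker found in the table was at 0 in all MKs alone, and Gp6, Lepr and Vpreb1 were at 0 in coculture replicate 3. In bulk samples, fewer cells of a type and less RNA per cell cannot be told apart.

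Mmp3, Mmp8 and Mmp13 lie in 1 gene cluster on chromosome 9 and did not move in 1 direction, so the sequences at their starts are shown. RefSeq (GRCm38.p6) gave promoter windows for 8 of the 10 genes, and Mmp2 and Mmp9 were not matched. Each sequence runs on the plus strand from 120 bases before to 10 bases after the RefSeq start of the gene. For Mmp8 that start lies 27 bases before the GENCODE start given with its values. For Mmp13 and Mmp3 it is the same base. Capitals mark TGANTCA, the letters bound by AP-1 transcription factors, or TATAAA, the letters of the TATA box, read on either strand.
Mmp13 (chr9:7272394-7272523): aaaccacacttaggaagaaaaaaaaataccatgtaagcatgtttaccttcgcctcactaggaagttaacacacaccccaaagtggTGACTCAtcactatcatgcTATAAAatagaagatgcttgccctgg
Mmp3 (chr9:7445702-7445831): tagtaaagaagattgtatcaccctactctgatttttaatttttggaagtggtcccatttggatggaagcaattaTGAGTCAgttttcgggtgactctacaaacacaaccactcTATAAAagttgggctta
Mmp8 (chr9:7558309-7558438): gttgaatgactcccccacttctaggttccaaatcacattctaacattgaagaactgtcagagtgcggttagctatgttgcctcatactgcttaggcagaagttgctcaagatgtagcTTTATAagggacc
In the window searched, from 250 bases before to 50 after the start, TGANTCA was found in Mmp13 and Mmp3, that is in 2 of the 8 windows, and in 7.81% of 32851 mouse promoter windows of the same length. TATAAA was found in Mmp13, Mmp3 and, on the minus strand, Mmp8, and in 13.6% of all windows. The matches began at -16 in Mmp13, -7 in Mmp3 and -3 in Mmp8, counted from the RefSeq start. The Mmp8 match spans that start, and whether any match acts as a TATA box was not tested. The motifs did not overlap each other, and a match of letters is a description of the window only.

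The neutrophil-type proteases were the most abundant of the 10 genes in the libraries of MKs cultured alone and fell in coculture. Those libraries held 78821 to 81613 CPM of neutrophil markers and 2285 to 2522 CPM of MK and platelet markers. Which cells held the Mmp8 and Mmp9 transcripts was not tested. Mmp8 (chr9:7558456-7568485, plus strand, GRCm38) had 5670, 4740, 4870 and 4860 CPM in MKs alone and 548, 485, 80.2 and 517 CPM in cocultures 1 to 4. The groups did not overlap, and the lowest library was coculture replicate 3. Mmp8 was 12.4-fold lower in coculture (log2 fold change -3.63 ± 0.54 (SE), edgeR adjusted p = 0.00178), with means of 5036 ± 426 and 408 ± 220 CPM (SD, n = 4). Without coculture replicate 3 the log2 fold change was -3.30 ± 0.20.

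Mmp9 (chr2:164940780-164955850, plus strand) had 798, 990, 1270 and 1170 CPM in MKs alone and 138, 135, 53.6 and 231 CPM in cocultures. Again every coculture lay below every library of MKs alone. It was 7.58-fold lower (log2 fold change -2.92 ± 0.41, edgeR adjusted p = 0.00132), and the log2 fold change was -2.68 without coculture replicate 3. The ratio of Mmp8 to Mmp9, taken on CPM per kilobase of exon and chosen after the values were seen, was 10.4, 6.98, 5.61 and 6.06 in MKs alone and 5.79, 5.24, 2.18 and 3.27 in cocultures, so that the ranges overlapped.

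Both genes were set against the summed level of the 12 neutrophil markers, a ratio also chosen after the values were seen. Per 1000 CPM of these markers, Mmp8 stood at 71.9, 58.1, 60.2 and 60.3 CPM in MKs alone and at 56.7, 53.3, 18.8 and 54.7 CPM in cocultures. Mmp9 stood at 10.1, 12.1, 15.7 and 14.5 CPM in MKs alone and at 14.3, 14.8, 12.6 and 24.4 CPM in cocultures. On this scale Mmp8 lay below the range of MKs alone in all cocultures, by a small margin except in replicate 3, and Mmp9 lay within that range except in replicate 4, which was above it. The neutrophil granule enzymes Elane, Prtn3, Ctsg and Mpo, of which Mpo is a peroxidase and the others are serine proteases, were called lower in 4 of 4, with a median log2 fold change of -4.24 against 0.034 for all genes tested. Over all genes tested, 7.31% were called lower. Neutrophil elastase, Elane, went from 1077 ± 253 to 50.1 ± 15.2 CPM (log2 fold change -4.43 ± 0.32, edgeR adjusted p = 4.13e-05). Mpo went from 3158 ± 714 to 127 ± 61.7 CPM (log2 fold change -4.63 ± 0.50, edgeR adjusted p = 0.00027). Elane and Mpo also belong to the neutrophil markers. The part of neutrophils in the lower Mmp8 and Mmp9 levels was not tested.

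Of the stromal-type proteases, Mmp3 and Mmp13 were at or near 0 in MKs alone, Mmp2 was low and Mmp14 was higher, and 3 of the 3 tested rose in coculture. MSC markers summed to 42.7 to 69.1 CPM in MKs alone and 1237 to 4088 CPM in cocultures. Which cells held the transcripts of these proteases was not tested. Mmp14 (chr14:54431612-54445364, plus strand), which cuts collagen at the cell surface and activates Mmp2, had 13.2, 18.5, 20.4 and 17.3 CPM in MKs alone and 131, 170, 167 and 127 CPM in cocultures. The libraries of each group lay close together, coculture replicate 3 included. Mmp14 was 8.54-fold higher (log2 fold change 3.09 ± 0.24, edgeR adjusted p = 4.66e-05).

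Mmp2 (chr8:92827291-92853420, plus strand) had 1.54, 3.08, 6.85 and 5.67 CPM in MKs alone and 114, 146, 53.8 and 141 CPM in cocultures. Coculture replicate 3 was the lowest of its group and still above all MKs alone. Mmp2 was 26.2-fold higher (log2 fold change 4.71 ± 0.55, edgeR adjusted p = 0.000423).

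Mmp13 (chr9:7272514-7283331, plus strand), a collagenase of osteoblasts and chondrocytes, was listed at 0 in 3 of the 4 libraries of MKs alone and had 4 counts in replicate 3, or 0.442 CPM. In cocultures it had 89.6, 52.0, 39.8 and 105 CPM, with 2337 counts in all. The ratio of pooled levels was 512, with a 95% interval of 199.7 to 1881 that covers counting error only, and the fitted log2 fold change was 8.94 ± 0.97 (edgeR adjusted p = 0.000295). The fitted value rested on the single MK library with counts, and was 12.10 without it, where the group is at 0 and the fold has no upper limit.

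Mmp3 (chr9:7445822-7455975, plus strand), which cuts proteoglycans and activates other MMP precursors, had no count in MKs alone and 65, 11, 0 and 44 counts in cocultures, or 6.14, 1.43, 0 and 7.61 CPM. A count of 0 allowed up to 0.308 to 0.66 CPM at the depth of the libraries of MKs alone. Coculture replicate 3 was like the MKs alone and the other cocultures were above. The pooled level was at least 35.1-fold higher in coculture, against 3 counts over the group of MKs alone. Mmp3 missed the filter on low counts with all 8 libraries and had an edgeR adjusted p = 0.0524 with no filter. Without coculture replicate 3 it passed the filter through the cocultures alone and was called higher (edgeR adjusted p = 2.98e-05). That call rests on leaving out the coculture at 0 and is no separate support for a rise.

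**Figure D2:**
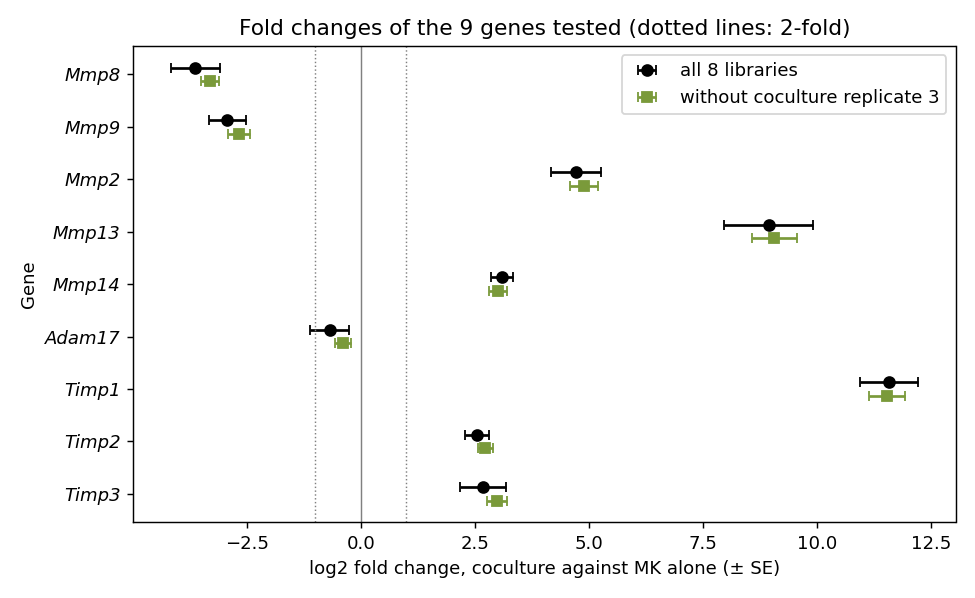
Log2 fold change of the 9 genes tested, coculture against MKs alone, on the x axis with bars for ± SE, with all 8 libraries (black circles) and without coculture replicate 3 (green squares), and dotted lines at 2-fold. Mmp8, at -3.63, and Mmp9, at -2.92, lie left of the lines, Adam17 lies between them at -0.68, and the other 6 lie to the right, with Timp1 the farthest at 11.58.

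Adam17 (chr12:21323509-21373632, minus strand) was not called, unlike the other 8 genes tested. It had 223, 174, 149 and 163 CPM in MKs alone and 140, 128, 31.1 and 143 CPM in cocultures. All cocultures lay below all MKs alone, by a small margin in 3 of them and by a wide one in replicate 3. The log2 fold change was -0.68 ± 0.42 (edgeR adjusted p = 0.284), and without coculture replicate 3 it was -0.39 ± 0.18 (edgeR adjusted p = 0.0699). Exons of Adam17 overlap those of Iah1 on the opposite strand, and the library kit does not mark strand, so reads of the shared part cannot be told apart. Iah1 had 15.8 to 25.4 CPM in MKs alone and 28.5, 20.5, 106 and 26.8 CPM in cocultures, highest in the replicate in which Adam17 was lowest.

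The trafficking partners that carry Adam17 to the cell surface, the inactive rhomboids Rhbdf1 and Rhbdf2 and their adaptor Frmd8, gave no call in 2 tested, and 1 called higher of 3 without coculture replicate 3. The gene called was Rhbdf1, with 0.220, 1.03, 0.663 and 0.486 CPM in MKs alone and 10.9, 16.7, 0.209 and 26.3 CPM in cocultures (log2 fold change 4.71 ± 0.44 without replicate 3, edgeR adjusted p = 1.38e-07). Replicate 3, with 2 counts, was like the MKs alone, and the other cocultures were above them. The call came with this low coculture left out, and is no separate support for a rise. Frmd8 had 101 ± 18.2 CPM in MKs alone and 145 ± 56.9 CPM in cocultures (log2 fold change 0.52 ± 0.28, edgeR adjusted p = 0.230). Of 14 tested substrates of Adam17, 3 were called higher (Ereg, Hbegf and Csf1r) and 2 lower, Il6ra among them. Their median log2 fold change was 0.26. Over all genes tested, 13.2% were called higher and 7.31% lower. Ereg, which encodes the growth factor epiregulin, had no count in MKs alone and 17.8, 11.7, 82.7 and 17.6 CPM in cocultures, at least 343-fold higher against 3 counts over the group. Csf1r is also a macrophage marker. Only 2 substrates were called higher without replicate 2, 3 or 4 of MKs alone, or without coculture replicate 1, 2 or 4. Only 1 substrate was called lower without any 1 of the 4 libraries of MKs alone, without coculture replicate 2 or without coculture replicate 4, and without coculture replicate 3 the calls were 6 higher and 4 lower. Gp1ba, the platelet substrate, picked after its values were seen, had 26.4, 49.4, 36.9 and 34.5 CPM in MKs alone and 18.1, 16.4, 0.104 and 15.7 CPM in cocultures. All cocultures lay below all MKs alone, and replicate 3 held 1 count. Gp1ba was not called with all 8 libraries (log2 fold change -1.55 ± 0.94, edgeR adjusted p = 0.274) and was called lower without coculture replicate 3 (log2 fold change -1.16 ± 0.23, edgeR adjusted p = 0.000474).

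All 3 inhibitors rose in coculture, where the MSC and macrophage marker sums were also higher. Which cells held the TIMP transcripts was not tested. Timp1 (chrX:20870166-20874735, plus strand) was listed at 0 in 3 libraries of MKs alone, had 3 counts in replicate 2, or 0.308 CPM, and had 320, 428, 342 and 312 CPM in cocultures. The cocultures lay close together, and replicate 3 was at 96.8% of the mean of the other cocultures. The ratio of pooled levels was 3436, with a 95% interval of 1175 to 16664 for counting error, and the fitted log2 fold change was 11.58 ± 0.64 (edgeR adjusted p = 1.51e-05). It ranked 31 by fold change and 18 by p among the 11722 genes tested. Without replicate 2 of MKs alone, which held all of that group's counts, the fitted value was 14.39. Timp1 lies within Syn1 on the opposite strand, with no shared exon, and Syn1 had at most 5.19 CPM in any library.

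Timp2 (chr11:118301069-118355740, minus strand) had 97.2, 95.0, 105 and 103 CPM in MKs alone and 667, 722, 332 and 624 CPM in cocultures. The MKs alone lay within a narrow range, and coculture replicate 3 was the lowest of its group. Timp2 was 5.86-fold higher (log2 fold change 2.55 ± 0.26, edgeR adjusted p = 0.000205). Cep295nl, a gene on the same strand that overlaps Timp2 with no shared exon, had at most 1.30 CPM.

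Timp3 (chr10:86300372-86349506, plus strand) had 175, 126, 93.1 and 114 CPM in MKs alone and 1070, 803, 206 and 1160 CPM in cocultures. Replicate 3 was again the lowest coculture, close above the highest library of MKs alone. Timp3 was 6.39-fold higher (log2 fold change 2.68 ± 0.50, edgeR adjusted p = 0.00523), and 2.98 ± 0.22 on the log2 scale without that replicate. Exons of Syn3 overlap those of Timp3 on the opposite strand, and Syn3 was not analysed here.

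Across the 9 genes tested, groups did not overlap in 6 that were higher in coculture and 3 that were lower (Mmp8, Mmp9 and Adam17). The 6 include Mmp13 and Timp1, which passed the filter on low counts through the cocultures alone. Over all genes tested, 19.3% did not overlap and were higher, and 21.1% did not overlap and were lower. Coculture replicate 3 was not shifted by 1 factor for all genes. As a percentage of the mean of the other 3 cocultures it was at 117 for Mmp14 and 96.8 for Timp1, at 49.4 for Timp2, 48.5 for Mmp13 and 40.2 for Mmp2, and at 31.9 for Mmp9, 22.7 for Adam17, 20.4 for Timp3 and 15.5 for Mmp8. The same library had the lowest neutrophil, B cell and MSC marker sums of the cocultures. Its macrophage sum and its MK and platelet sum were the highest of the cocultures. The part of these cell types in its values was not tested.

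To compare levels between genes, CPM were divided by the merged exon length in kilobases (GENCODE M21). In MKs alone, the level was highest for Mmp8 (2077 ± 176 CPM per kb, SD, n = 4) and next for Mmp9 (299 ± 58.6). Timp2 (25.7 ± 1.21) and Adam17 (24.8 ± 4.47) lay within each other's spread, followed by Timp3 (15.6 ± 4.24), Mmp14 (2.91 ± 0.51) and Mmp2 (1.27), while Timp1 (0.0867), Mmp13 (0.0413) and Mmp3 (0) were at or near 0. In cocultures Timp1 ranked first (394 ± 59.9 CPM per kb). Mmp8 (168 ± 90.6), Timp2 (150.5 ± 44.7) and Timp3 (99.5 ± 52.8) followed, with overlapping ranges of mean ± SD. Next came Mmp9 (39.4 ± 20.5), Mmp2 (33.8 ± 12.6), Mmp13 (26.8 ± 11.4), Mmp14 (24.9 ± 3.81) and Adam17 (15.5 ± 7.47), whose ranges also overlapped. The ranges of Timp3 and Mmp9 overlapped too, and Mmp3 (2.11) came last. With the length of the longest transcript instead, Adam17 stood at 39.7, Timp2 at 27.0 and Timp3 at 26.9 CPM per kb in MKs alone, and in cocultures Timp3 stood at 172, Mmp14 at 45.9 and Adam17 at 24.7, so that the order among those neighbours changed.

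Ratios of enzymes to the inhibitors known to bind them were taken per library on CPM per kb, with no test. Mmp9 to Timp1 was 0.109, 0.0792, 0.0393 and 0.186 in cocultures, and from pooled counts 2674 in MKs alone, with a 95% counting interval of 915 to 12968. Adam17 to Timp3 was 1.45, 1.58, 1.83 and 1.62 in MKs alone and 0.149, 0.181, 0.172 and 0.141 in cocultures. This ratio was similar in all cocultures, replicate 3 included, although the levels of both genes were low in that library. Mmp14 to Timp2 was 0.0887, 0.127, 0.127 and 0.110 in MKs alone and 0.128, 0.154, 0.328 and 0.133 in cocultures. Every coculture lay above every library of MKs alone, by a small margin except in replicate 3.

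The table held 16 MMP genes, and the makeup of their summed CPM per kb changed between groups. In MKs alone Mmp8 and Mmp9 made up 99.3% ± 0.11 of the sum (SD, n = 4), whereas in cocultures they made up 34.5%, 34.3%, 10.5% and 39.0%. The 4 stromal-type proteases together went from 0.178% ± 0.055 to 13.3% ± 1.21. The largest part in cocultures was held by Mmp12, the macrophage elastase, with 49.5%, 47.0%, 66.8% and 40.7% against a mean of 0.0309% in MKs alone. The sum itself was 2250 to 2576 CPM per kb in MKs alone and 461 to 769 in cocultures, so that a share could grow without a higher level.

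**Figure D3:**
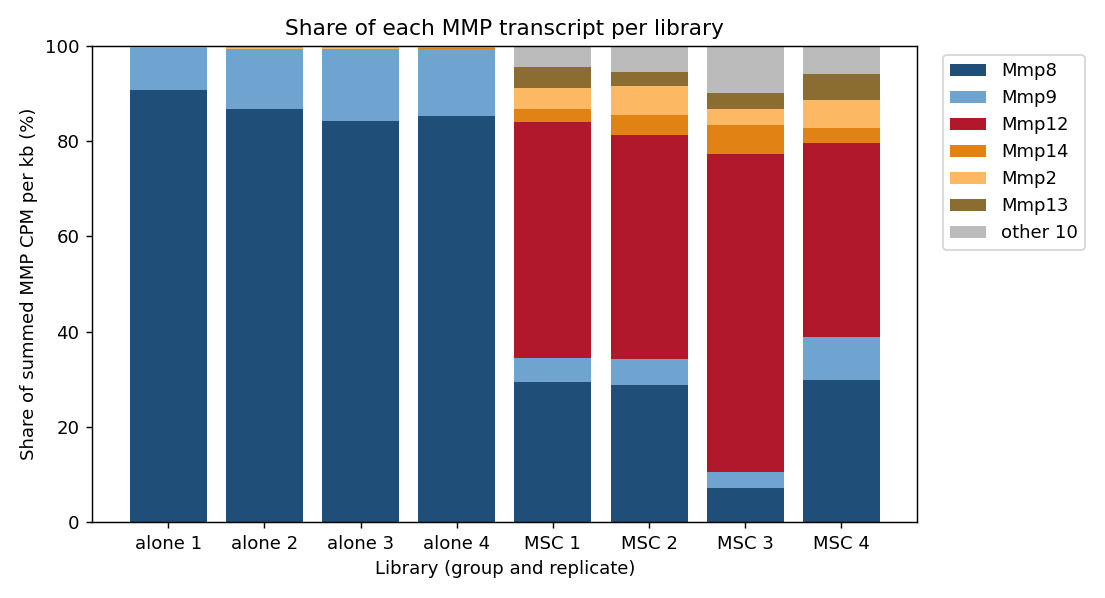
Share of each MMP in the summed MMP level (CPM per kb) of every library, in percent on the y axis, with stacked bars for the 4 libraries of MKs alone and the 4 cocultures. Mmp8 and Mmp9 fill 99.3% ± 0.11 of the bars of MKs alone, and Mmp12 is the largest part of each coculture, from 40.7% to 66.8%.

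Mmp12 had 5.72, 5.34, 4.64 and 5.67 CPM in MKs alone and 2760, 2360, 2230 and 2110 CPM in cocultures (log2 fold change 8.79 ± 0.24, edgeR adjusted p = 4.72e-07). Which cells held its transcripts was not tested. Mmp12 lies in the chromosome 9 cluster, in which 9 protein-coding MMP genes span 427 kb, of which 6 were in the table. In the order of the chromosome, Mmp13 and Mmp12 rose. Mmp3 and then Mmp10, 229.8 kb from the first gene, had no count in MKs alone, and Mmp10 had 38, 37, 0 and 25 counts in cocultures (at least 29.2-fold higher, not tested). Mmp8 fell, and its neighbour Mmp27 had means of 1.46 and 1.15 CPM and was not called (edgeR adjusted p = 0.839). Mmp1b, Mmp20 and Mmp7 were not analysed here. The plot along the cluster shows these levels side by side.

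**Figure D4:**
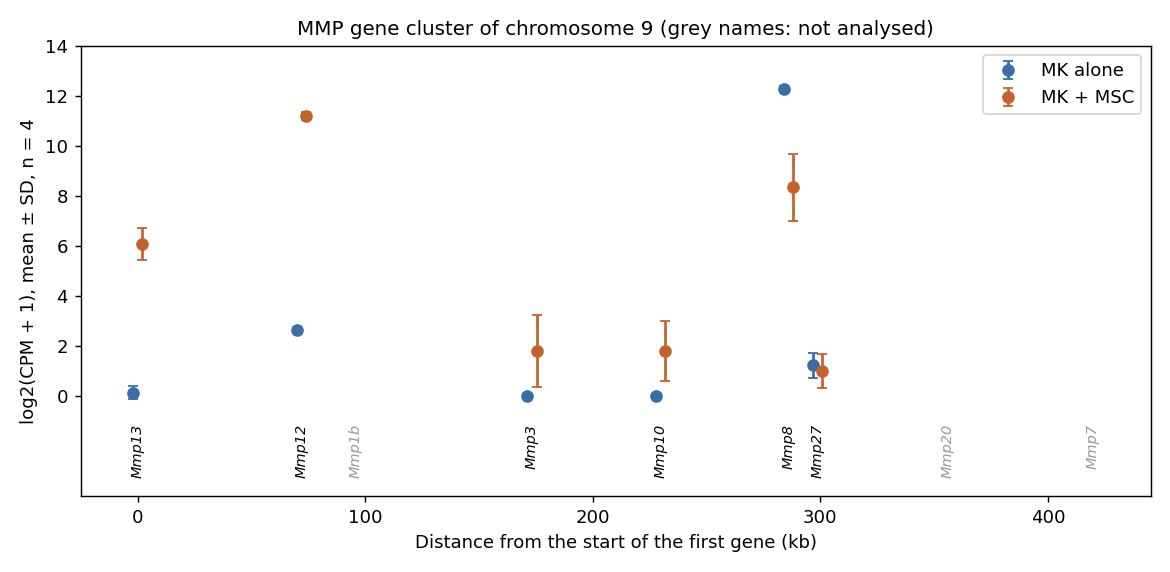
Level of the MMP genes of the chromosome 9 cluster, as mean log2(CPM + 1) ± SD of 4 libraries on the y axis, against the distance in kb from the start of the first gene on the x axis, for MKs alone (blue) and cocultures (orange); genes not analysed are named in grey. Mmp12 goes from a mean of 5.34 to 2363 CPM and Mmp8 from 5036 to 408 CPM.

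Other MMP and TIMP genes were written down as a list of 18, of which 10 were in the table and 6 could be tested. Of these 3 were called higher (Mmp11, Mmp12 and Mmp23) and 1 lower, with a median log2 fold change of 2.61. The gene that fell was Mmp25, a membrane-anchored MMP of leukocytes, with means of 36.1 ± 7.80 and 4.41 ± 2.70 CPM (log2 fold change -3.04 ± 0.68, edgeR adjusted p = 0.0130). Without coculture replicate 3, 7 of 9 tested were called higher and 1 lower. For this list and those that follow, 13.2% of all genes tested were called higher and 7.31% lower. Without coculture replicate 3 these shares were 20.6% and 15.4%.

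Of the other ADAM genes, 4 of 7 tested were called higher (Adam8, Adam9, Adam12 and Adam15) and none lower, with a median log2 fold change of 1.41. Adam12 had 1.32, 0.822, 0 and 0.486 CPM in MKs alone and 7.27, 19.5, 1.77 and 5.88 CPM in cocultures (log2 fold change 3.73 ± 1.13, edgeR adjusted p = 0.0429). The list's count was 2 without replicate 1, 3 or 4 of MKs alone or without coculture replicate 2. Adam10, the sheddase most like Adam17 and the most abundant of the list per kb, had 494 ± 125 CPM in MKs alone and 293 ± 56.1 CPM in cocultures and was under the 2-fold limit (log2 fold change -0.75 ± 0.23, edgeR adjusted p = 0.0468). Of the ADAMTS genes, secreted proteases of the matrix, 2 of 5 tested were called higher (Adamts2 and Adamts14), and 7 of 9 without coculture replicate 3. Adamts14, which trims procollagen, had at most 0.220 CPM in MKs alone and 3.87, 3.76, 65.2 and 9.33 CPM in cocultures (log2 fold change 7.89 ± 1.51, edgeR adjusted p = 0.00615), with its highest level in replicate 3. Without that replicate the log2 fold change was 6.02 ± 0.76.

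Among 13 tested genes that activate MMPs, clear them or hold them at the membrane, 5 were called higher (Cav1, Lrp1, Bsg, Pcsk6 and Ctsb) and 1 lower (Lcn2), with a median log2 fold change of 0.64. Without coculture replicate 3 the calls were 9 higher and 2 lower of 16 tested. Cav1, the caveola protein caveolin-1, had no count in MKs alone and 200, 145, 112 and 142 CPM in cocultures, at least 1501-fold higher against 3 counts over the group. Ctsb, the lysosomal protease cathepsin B, went from 577 ± 84.4 to 3994 ± 515 CPM (log2 fold change 2.79 ± 0.21, edgeR adjusted p = 3.81e-05). Lrp1, the receptor that takes up MMP and TIMP complexes, went from 7.22 to 217 CPM (log2 fold change 4.91 ± 0.32, edgeR adjusted p = 2.55e-05) and was named after its values were seen. Lcn2, the neutrophil lipocalin that binds Mmp9, fell from 1070 ± 207 to 170 ± 56.0 CPM (log2 fold change -2.65 ± 0.28, edgeR adjusted p = 0.000271).

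**Figure D5:**
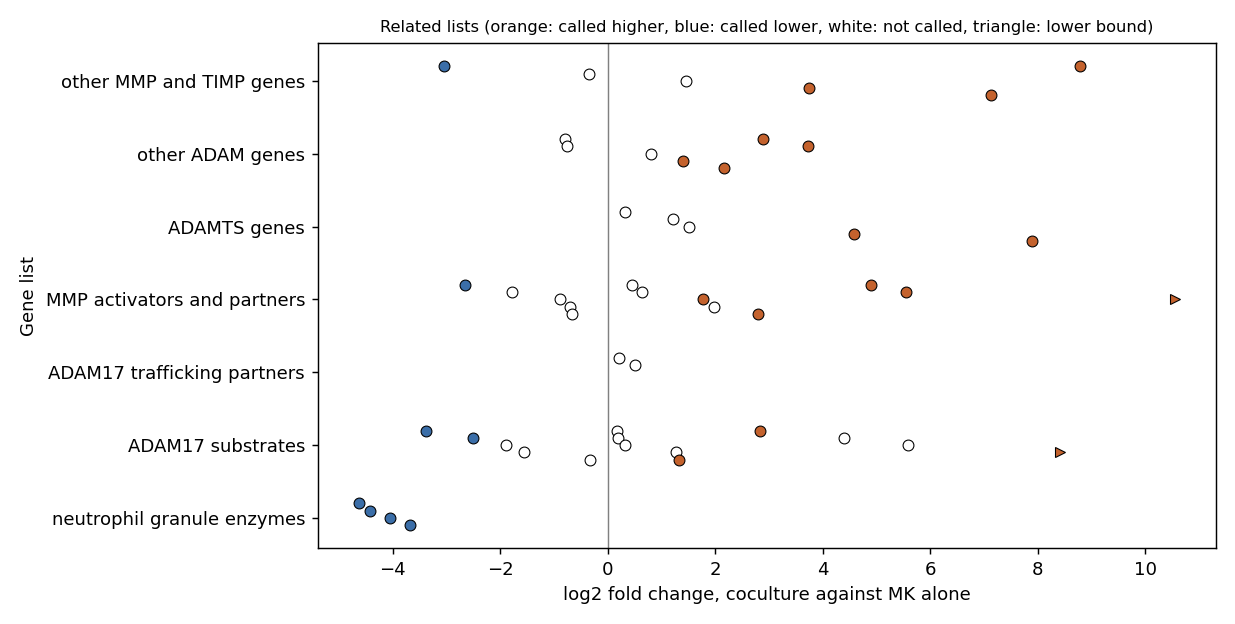
Log2 fold change of each tested gene of the related lists, coculture against MKs alone, on the x axis, with 1 row of points for each list, filled orange where called higher, blue where called lower and white where not called, and triangles at the lower bound of genes with no count in MKs alone. All 4 neutrophil granule enzymes lie on the left. The other lists hold more genes called higher than lower, as did all genes tested, where 64.3% of calls were higher. The trafficking partners of Adam17 are the exception and hold no call with all 8 libraries.

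The genes whose levels were most like those of Mmp9, Mmp14 and Timp3 were sought by Pearson's r of log2(CPM + 1) over the 8 libraries among 9037 genes with a mean of at least 10 CPM. The points share the difference between the groups and coculture replicate 3, so the values are a description. Most like Mmp9 were Spns3 (r = 0.997), 4930438A08Rik (0.996) and Sema4a (0.996). Most like Mmp14 were the integrin subunit Itgb5 (0.999), Maged1 (0.997) and Snx7 (0.997), and most like Timp3 were the lysosomal genes Gla (0.994) and Lamp1 (0.990) and the gene Tmem159 (0.992).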

How the data were processed

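RNA was sequenced as 8 libraries (4 per group), made with a low-input SMART-Seq kit that does not mark strand. The authors deposited raw counts per gene. Per the study's methods, reads were filtered with fastp and assigned to mm10 transcripts with kallisto, and groups were compared with DESeq2; versions are not given in the sources used here. Every gene in the table had at least 11 counts in all. From these counts, edgeR 4.0.16 in R 4.3.3 gave TMM-normalised CPM and log2 fold changes with a robust quasi-likelihood F test (filterByExpr; no covariate; Benjamini-Hochberg adjustment over all genes tested). SE was taken as the absolute log2 fold change over the square root of F. The study's batch term is not named in the labels and was not fitted. DESeq2 1.42.0 was an alternative, as were other scalings, filters, a replicate block, gene lengths and leaving out each library.

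A gene with 0 counts in a group was set to 3 counts over the group, and intervals are exact (Clopper-Pearson, 95%) and cover counting error only. A gene at or near 0 in MKs alone could pass the filter on low counts only through the cocultures. Its call is then no separate support for a rise. Gene positions and lengths come from GENCODE M21 (GRCm38), promoters from RefSeq. The genes and lists were chosen with earlier results of these data known. Of the related lists, the rule named the called gene with the largest change in each direction and the gene with the highest level per kb, and genes overlapping a member; others are named where a count is 5 or fewer. The scripts for the tests were tested on simulated data. The values of 1 gene among the Adam17 substrates are not reported here.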

Additional observations from a re-analysis of the deposited data

Results flagged for a closer look

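For each of the 10 genes and 5 marker sums, each group of 4 libraries was examined for a library whose gap to the nearest other took up most of the group's range (Dixon's ratio above its 95% critical value). Of 30 groups 7 held such a library, and chance flags about 1 in 20. Of the 7, 4 were coculture replicate 3: Mmp8 at 6.34 and Adam17 at 5.003 on the log2(CPM + 1) scale, and the neutrophil markers at 12.06 and the B cell markers at 5.93 as log2 of the summed CPM, all below the other cocultures. In MKs alone, Mmp8 was higher in replicate 1, at 12.47 on the log2(CPM + 1) scale, than in the other libraries. The other flags were genes with counts in a single library of MKs alone, Mmp13 in replicate 3 at 0.53 and Timp1 in replicate 2 at 0.39 on the same scale.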

How the results depend on the processing

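The direction and the call of each of the 9 log2 fold changes were the same in all 150 values from alternatives, with ranges of -3.89 to -3.30 for Mmp8, -3.24 to -2.66 for Mmp9, -0.87 to -0.37 for Adam17, 2.96 to 3.35 for Mmp14, 4.43 to 5.01 for Mmp2, 8.49 to 12.10 for Mmp13, 11.12 to 14.39 for Timp1, 2.46 to 2.84 for Timp2 and 2.46 to 2.98 for Timp3. The count of genes called across the table was 2401, and 4420 without coculture replicate 3. Leaving out 1 library at a time gave 1634 to 4420. DESeq2 called 3116. Of the 10 genes, 6 to 7 were called higher and 2 lower when 1 library was left out, and 3 were called higher when at least 10 counts were required in every library, a filter that removes Mmp2, Mmp13 and Timp1. Same-numbered libraries of the 2 groups correlated at 0.37, 0.0198, 0.15 and 0.028 after removal of the group means, and not every library correlated best with its own number. All 4 values were positive, but not all above 0.1, so the libraries were not treated as paired, and whether a number marks a shared batch was not settled. A fit with the replicate number as a block called 1669 genes, with 6 of the 10 genes higher and 2 lower. Of the counts of calls in the related lists, 28 moved by over 1.5 times and 210 did not, and of the levels and ratios per kb, 9 moved by more than 1 SD between libraries with the longest transcript's length and 16 did not. Depth limits Mmp3, Mmp13 and Timp1 in MKs alone, where 3 counts are worth 0.308 to 0.66 CPM.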
